A study of Mus musculus with 6 samples.

Results

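Solute carriers are the membrane proteins that move amino acids, metals, nucleosides, sugars, ions and vitamins across the plasma membrane and the membranes of organelles. Their transcripts were described here in lymphatic endothelial cells sorted from mouse melanomas. All gene symbols of the deposited table that begin with Slc and a digit were taken if their mean over the 6 libraries reached 3 CPM, apart from 6 that were left out by name (Slc2a1, Slc2a3, Slc16a1, Slc16a3, Slc25a20 and Slc45a2). This gave 177 members of 223 such symbols, among 13454 genes in the table. The other 46 lay under the floor. The members were grouped by substrate into 21 amino acid carriers, 23 metal carriers, 5 nucleoside and nucleobase carriers, 34 members of the mitochondrial Slc25 family and 94 others, of which 5 are no carriers.

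B16-OVA-VEGFC melanomas, a transplanted mouse line whose name carries the lymphatic growth factor VEGFC, grew in mice that either lacked Ch25h in their lymphatic vessels (Ch25h KO) or were littermates without that deletion (WT), with 3 libraries per group. Ch25h makes 25-hydroxycholesterol. Both groups bore the same tumour line, and in both the cells were gated as CD45-, CD31+ and GP38+. The sources used here do not give the Cre line, the age and sex of the mice, or whether animals were pooled, and they do not tie each library to a mouse of its own. The p-values below therefore speak of library-to-library spread, and that spread may be technical.

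A cell takes up glutamine and other neutral amino acids through sodium-coupled carriers and passes part of them out again in exchange for leucine and other essential amino acids, which feed protein synthesis and the mTORC1 kinase. Zinc carriers of the Slc39 family fill the cytosol and those of the Slc30 family empty it, while iron leaves cells through ferroportin, encoded by Slc40a1. Equilibrative carriers of the Slc29 family let nucleosides, adenosine included, cross the membrane along their gradient. Slc25 proteins carry ATP, ADP, phosphate and metabolites across the inner mitochondrial membrane.

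Between 36556824 and 46165273 reads stood behind each library. Ch25h itself measured 82.9, 88.8 and 106 CPM in the WT libraries and 0, 0.0232 and 2.95 CPM in the Ch25h KO libraries, a log2 difference of -5.87 ± 0.47 (SE, limma adjusted p = 0.00365, lower in 3 of 3 libraries). The library of WT number 3 and that of Ch25h KO number 3 lay at opposite ends of the first principal component, which held 33.7% of the variance, so results that rest on them are also given without both, a choice made after the data were seen. Defining genes of lymphatic endothelium, 7 of 8 listed, were present in every library, with summed levels of 6858 to 9418 CPM in WT and 6204 to 8841 CPM in Ch25h KO. Lyve1, the largest part of that sum at a mean of 2909 CPM, had a higher mean of log2 values in Ch25h KO. The other 6 had a lower one, and the median log2 difference of the 7 was -0.21. Only for Reln, lower in Ch25h KO, did the groups not overlap. Of the blood endothelial markers, 7 of 8 listed were in the table, and their sum was 1871 to 2863 CPM in WT against 1354 to 1729 CPM in Ch25h KO, without overlap. Most of that sum was Plvap, and Cd34 and Emcn followed at means of 341 and 28.0 CPM over the 6 libraries. Flt1, Esm1, Ly6c1 and Sox17 had means of only 1.29, 1.47, 3.33 and 0.505 CPM. Sox17 was at 0 in Ch25h KO library 1. Of the 6 blood endothelial markers tested, 4 had a lower mean of log2 values in Ch25h KO, and 2, Emcn and Cd34, a higher one. Red cell and platelet markers, 5 of 9 in the table, also did not overlap, at 35.2 to 51.5 CPM against 20.0 to 34.3 CPM, and none of the 5 was at 0. Leukocyte markers, 12 of 15 in the table, summed to 40.7 to 372 CPM in WT and to 43.9 to 280 CPM in Ch25h KO. The 280 CPM, in Ch25h KO library 3, held 200 CPM of Fcer1g alone. Of the 12, 4 had a higher and 8 a lower mean of log2 values in Ch25h KO, at a median log2 difference of -0.80. The groups overlapped for all 12. Ptprc and Cd79a were highest in Ch25h KO library 2, at 19.7 and 13.1 CPM. Ptprc was at 0 in WT library 2 and Ch25h KO library 1. Melanoma markers summed to 132 to 292 CPM against 147 to 359 CPM, and fibroblast markers to 67.6 to 357 CPM against 77.9 to 206 CPM. Of the 10 melanoma markers, 8 had a higher mean of log2 values in Ch25h KO and 2, Gpnmb and Mitf, a lower one. Their median log2 difference was 0.56, and the groups overlapped for all 10. Of 6 fibroblast markers tested, 2 were higher and 4 lower on that scale, with a median of -0.67 and with overlap. The part of any of these cells in the carrier values was not tested.

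None of the 177 carriers differed between Ch25h KO and WT after adjustment over all 11980 genes tested. Tested genes had a mean of at least 1 CPM, and the test was limma on log2(CPM + 1), with 0.05 as the threshold for the adjusted p. The smallest adjusted p of a carrier was 0.836. Over all genes the same test called 0% higher and 0.00835% lower, the latter being Ch25h alone. At an unadjusted limma p under 0.05 there were 2 carriers higher and 8 lower in Ch25h KO, beside 1.62% and 3.79% of all genes tested, or 10 carriers (5.65%) beside 5.41%. That share is close to the background. edgeR's quasi-likelihood test on the recovered reads called no carrier, with 0% of all genes called in either direction, and put 3 carriers higher and 8 lower at an unadjusted p under 0.05, beside 1.84% and 3.62% of all genes. DESeq2 called no carrier either, where it called 0.0417% of all genes higher and 0.0501% lower, and it put 4 carriers higher and 8 lower at an unadjusted p under 0.05, beside 2.18% and 4.09% of all genes. Neither of these count tests called Ch25h itself, with adjusted p-values of 0.839 in edgeR and 0.208 in DESeq2. A missing call by them therefore does not show that a gene is unchanged.

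The groups did not overlap for 10 carriers that were higher in all 3 Ch25h KO libraries and for 13 that were lower, beside 4.38% and 5.78% of all genes tested, so 23 carriers (13.0%) stood beside 10.2%. The mean of the log2(CPM + 1) values was higher in Ch25h KO for 98 carriers and lower for 79, where 49.6% of all genes were higher and 50.4% lower. Every count of higher and lower means in the groups and lists below is on that log2 scale. The median log2 difference was 0.03 for the carriers and -0.002 for all genes. A difference within 0.5 on the log2 scale was measured for 166 carriers (93.8%), and for 91.8% of all genes. Without both libraries numbered 3, 1 carrier was higher and 1 lower at an unadjusted limma p under 0.05, beside 0.417% and 0.96% of all genes.

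**Figure D1:**
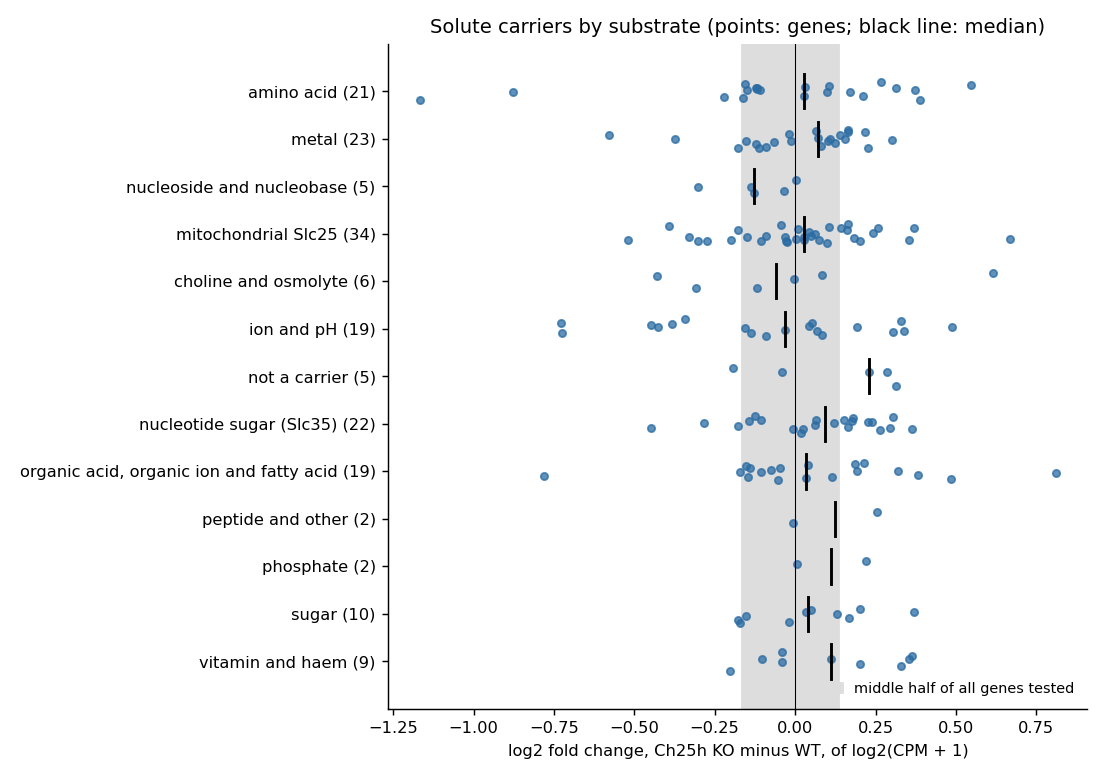
Log2 difference between Ch25h KO and WT (x axis, on the log2(CPM + 1) scale) for each of the 177 members, 1 point per gene, in rows by substrate with the number of genes in brackets. The black line is the median of a row and the grey band the interquartile range of all genes tested; the medians of the 4 main groups run from -0.13 for nucleoside to 0.07 for metal carriers, and the lowest point is Slc7a2 at -1.17.

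Levels were compared between genes only as mean CPM per kilobase of exon. On that scale the members ran from 0.347 to 209, with a median of 6.87. Their highest was Slc9a3r2, a scaffold protein that binds sodium-proton exchangers and is no carrier itself, followed by the mitochondrial ADP/ATP carriers Slc25a4 at 190 and Slc25a5 at 189, the zinc carrier Slc39a7 at 130, the sugar carrier Slc45a3 at 124 and the nucleobase carrier Slc43a3 at 112. Medians per kilobase were 10.7 for metal, 7.76 for Slc25, 5.87 for amino acid and 2.34 for nucleoside and nucleobase carriers.

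**Figure D2:**
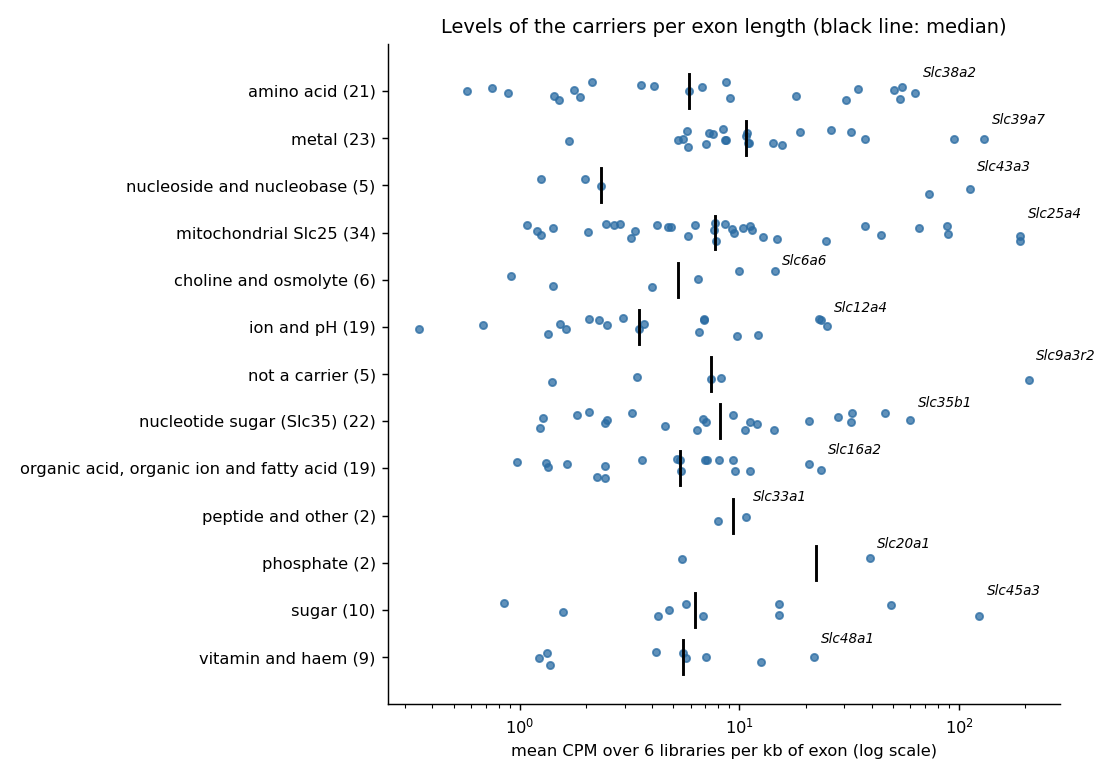
Mean level over the 6 libraries in CPM per kilobase of exon (x axis, log scale), 1 point per gene, in rows by substrate with the highest gene of each row named and the median as a black line. Within the 5 nucleoside and nucleobase carriers the points split into Slc43a3 and Slc29a1 at 112 and 72.9, and 3 genes at 2.34 or less.

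Among the 21 amino acid carriers, 11 had a higher mean and 10 a lower mean in Ch25h KO, with a median log2 difference of 0.03. None passed the test. At an unadjusted limma p under 0.05 there were 2 higher and 2 lower (19% of the 21, beside 5.41% of all genes tested), and the groups did not overlap for 3 higher and 3 lower members (28.6%, beside 10.2%). The glutamine exchanger Slc1a5, the leucine exchanger Slc7a5 and its partner chain Slc3a2 were the 3 without overlap on the higher side, and the glycine carrier Slc6a9, the arginine carrier Slc7a2 and the lysosomal glutamine carrier Slc38a7 the 3 on the lower side.

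Slc38a2, the sodium-coupled neutral amino acid carrier SNAT2 (mm10 chr15:96687392-96699730), had the highest level per kilobase of this group, at 63.3. Its libraries measured 452, 735 and 572 CPM in WT and 435, 564 and 601 CPM in Ch25h KO. WT library 2 was the highest of the 6, and the groups overlapped. Slc38a10, of the same family (chr11:120103960-120151346), measured 301, 428 and 375 CPM against 288, 351 and 340 CPM, again with overlap.

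Slc1a5 (chr7:16781340-16798274), which exchanges glutamine for other neutral amino acids and is also called ASCT2, measured 202, 217 and 146 CPM in WT and 256, 244 and 319 CPM in Ch25h KO. WT library 3 was the lowest and Ch25h KO library 3 the highest, and the groups did not overlap. The means were 188 ± 37.5 and 273 ± 40.4 CPM (SD, n = 3), a log2 difference of 0.55 ± 0.18 (SE) with a 95% interval of 0.14 to 0.95, a limma p of 0.0134 (adjusted 0.836) and an exact two-sided permutation p of 0.1, the smallest that 3 against 3 libraries can give. Without both libraries numbered 3 the log2 difference was 0.26.

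Slc7a5 (chr8:121881150-121907694) encodes LAT1, the light chain of a carrier that brings in leucine and other large neutral amino acids. It measured 60.1, 67.9 and 47.7 CPM in WT and 71.3, 74.6 and 82.9 CPM in Ch25h KO, with the lowest and the highest value again in the libraries numbered 3 of WT and of Ch25h KO. On the log2 scale the difference was 0.39 ± 0.16 (SE, limma p = 0.0414, adjusted 0.907, exact permutation p = 0.1, higher in 3 of 3 libraries), and 0.19 without both of them.

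Slc3a2 (chr19:8706882-8723369), the heavy chain that holds LAT1 and related light chains at the cell surface, measured 175, 159 and 142 CPM in WT and 218, 195 and 179 CPM in Ch25h KO. Its lowest Ch25h KO library lay just above the highest WT library. The log2 difference of 0.31 ± 0.14 (SE) had a 95% interval of -0.003 to 0.63 and a limma p of 0.0517 (adjusted 0.916, exact permutation p = 0.1), and it was 0.30 without both libraries numbered 3. Of the other light chains that pair with Slc3a2, Slc7a6 and Slc7a7 had log2 differences of 0.10 and 0.03. The cationic amino acid carrier Slc7a1, which needs no heavy chain, was at 0.17 on that scale.

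Slc6a9 (chr4:117834506-117875198), which encodes the glycine carrier GlyT1, had the smallest p of all carriers. Its libraries measured 31.0, 39.1 and 48.1 CPM in WT and 18.8, 25.2 and 18.7 CPM in Ch25h KO. Every Ch25h KO library lay under every WT library. The means were 39.4 ± 8.57 and 20.9 ± 3.72 CPM (SD, n = 3), a log2 difference of -0.88 ± 0.21 (SE) with a 95% interval of -1.35 to -0.41, a limma p of 0.00207 (adjusted 0.836) and an exact permutation p of 0.1. It was -0.66 without both libraries numbered 3. Exons of Slc6a9 overlap exons of Gm17114, Ccdc24 and B4galt2 on the other strand, and the kit used does not mark strand, so reads of the shared stretches cannot be told apart.

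Slc7a2 (chr8:40862396-40922308), the arginine and lysine carrier CAT2, had the lowest log2 difference of all carriers. It measured 17.2, 11.2 and 31.1 CPM in WT and 7.14, 9.40 and 6.43 CPM in Ch25h KO. WT library 3 stood far above the other 2 WT libraries, and the groups did not overlap. The log2 difference was -1.17 ± 0.34 (SE, limma p = 0.00638, adjusted 0.836, exact permutation p = 0.1, lower in 3 of 3 libraries), and -0.69 without both libraries numbered 3. Its exons overlap those of Gm26584 on the other strand.

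The windows of 250 bases before the RefSeq starts (GRCm38.p6) nearest to the GENCODE starts are shown for Slc3a2 and Slc6a9, as a higher and a lower amino acid carrier, and for the zinc carrier Slc39a11, which is described with the metals. Capitals mark matches on either strand to TGATGNAA, the amino acid response element, in the first 2 and to TGCNCNC in the last. TGCNCNC is a looser form of the metal response element core TGCRCNC, where R is A or G.
Slc3a2 chr19:8713898-8714147, minus strand: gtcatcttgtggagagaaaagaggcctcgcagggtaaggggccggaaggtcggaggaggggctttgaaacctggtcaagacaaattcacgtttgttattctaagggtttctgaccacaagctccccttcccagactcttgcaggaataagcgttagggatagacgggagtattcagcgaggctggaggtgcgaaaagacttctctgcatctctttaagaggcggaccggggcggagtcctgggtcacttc
Slc6a9 chr4:117835008-117835257, plus strand: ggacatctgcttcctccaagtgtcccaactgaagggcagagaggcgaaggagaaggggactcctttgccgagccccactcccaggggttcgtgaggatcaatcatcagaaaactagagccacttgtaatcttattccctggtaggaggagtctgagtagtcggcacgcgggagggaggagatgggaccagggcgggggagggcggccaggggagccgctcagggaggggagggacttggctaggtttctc
Slc39a11 chr11:113650093-113650342, minus strand: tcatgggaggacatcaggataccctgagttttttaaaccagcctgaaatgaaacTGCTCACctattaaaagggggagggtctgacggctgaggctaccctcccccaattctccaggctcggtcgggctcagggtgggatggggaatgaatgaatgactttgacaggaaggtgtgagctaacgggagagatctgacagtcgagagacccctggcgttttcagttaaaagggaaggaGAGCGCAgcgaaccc

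Neither amino acid carrier window holds the letters TGATGNAA. The RefSeq start that follows the window lies 9472 bases from the GENCODE gene start for Slc3a2, 752 for Slc6a9 and 13 for Slc39a11. Of the 177 genes, 135 matched the RefSeq table, with 182 windows. TGATGNAA was in 2.20% of those windows and in 3.45% of all 32851 windows of the same length. Of the 27 windows of amino acid carriers 2 held it, both listed for Slc7a7, a light chain that exports cationic amino acids. TGCNCNC was in 50.0% of the carrier windows and 44.4% of all windows, and in 14 of 20 windows of metal carriers (70.0%). Slc39a11 held it at 196 and at 15 bases before the start, the second on the opposite strand. The match at 196 reads TGCTCAC and does not meet the stricter TGCRCNC, while the match at 15 does. A match is a description of letters only.

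Genes of amino acid supply and sensing under other names were taken as a list. Of 14 listed, 14 were tested, 8 had a higher and 6 a lower mean, and none passed the test or had an unadjusted limma p under 0.05. Got1, the cytosolic aspartate aminotransferase, measured 42.2, 45.4 and 38.6 CPM in WT and 49.2, 48.6 and 61.2 CPM in Ch25h KO, without overlap. Ddit4, an inhibitor of mTORC1 that stress induces, measured 37.4, 32.9 and 43.6 CPM against 29.0, 36.6 and 20.7 CPM, with overlap. Their limma p-values were 0.0708 and 0.0913, each 0.941 when adjusted, with exact permutation p-values of 0.1 and 0.2, at log2 differences of 0.32 and -0.41. Without both libraries numbered 3 these were 0.16 and -0.10, and that of Ddit4 was -0.21 without Ch25h KO library 3 alone.

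Among the 23 metal carriers, 13 had a higher and 10 a lower mean in Ch25h KO, with a median log2 difference of 0.07, and none passed the test. Only 2 (8.70%, beside 5.41% of all genes tested), Slc40a1 and Slc39a11, had an unadjusted limma p under 0.05, both lower. The groups did not overlap for these and for the zinc importer Slc39a3 (13.0%, beside 10.2% of all genes), and for no higher member. The other 20 had log2 differences between -0.15 and 0.30.

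The zinc carrier Slc39a7 (chr17:34028269-34031682), which releases zinc from the endoplasmic reticulum, had the highest level per kilobase of the metal carriers, at 130. It measured 337, 367 and 311 CPM in WT and 326, 341 and 336 CPM in Ch25h KO, with the widest gap between any 2 libraries within WT. The copper carriers Slc31a2 and Slc31a1 followed at 94.9 and 37.3 per kilobase. Slc31a1 (chr4:62360727-62391769), the copper importer of the cell surface, measured 140, 188 and 163 CPM against 134, 199 and 133 CPM. Slc31a2 (chr4:62262562-62298411), its neighbour on the chromosome, measured 174, 217 and 145 CPM against 239, 203 and 180 CPM. In both genes the groups overlapped.

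Slc40a1 (chr1:45908068-45926523), which encodes the iron exporter ferroportin, measured 55.8, 60.8 and 70.4 CPM in WT and 43.3, 49.1 and 33.1 CPM in Ch25h KO. The highest value was in WT library 3 and the lowest in Ch25h KO library 3, and the groups did not overlap. The means were 62.4 ± 7.44 and 41.8 ± 8.09 CPM (SD, n = 3), a log2 difference of -0.58 ± 0.18 (SE) with a 95% interval of -0.98 to -0.17, a limma p of 0.0104 (adjusted 0.836) and an exact permutation p of 0.1. Without both libraries numbered 3 it was -0.33. The iron importer Slc11a2, also known as DMT1, was at -0.11 on the same scale.

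Slc39a11 (chr11:113244853-113650079), a zinc carrier of the ZIP family whose promoter window is shown above, measured 38.5, 43.0 and 42.5 CPM in WT and 28.3, 33.4 and 33.6 CPM in Ch25h KO. The lowest value was in Ch25h KO library 1, and the groups did not overlap. Ch25h KO minus WT was -0.37 ± 0.16 on the log2 scale (SE, limma p = 0.0378, adjusted 0.904, exact permutation p = 0.1, lower in 3 of 3 libraries), and -0.40 without both libraries numbered 3. Slc39a3 measured 45.7, 48.3 and 43.5 CPM against 39.9, 43.4 and 38.0 CPM, a gap between the groups of under 1 CPM. The zinc exporters of the Slc30 family had a higher mean for 5 of 6 members, with log2 differences from -0.12 to 0.16.

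Of 15 metal handling genes under other names, 14 were tested, with 6 higher and 8 lower means. None had an unadjusted limma p under 0.05. The copper pump Atp7a measured 66.3, 113 and 91.5 CPM in WT and 49.8, 79.99 and 65.1 CPM in Ch25h KO, with overlap and a log2 difference of -0.46 (limma p = 0.0723, adjusted 0.941, exact permutation p = 0.2). Leaving out WT library 2 made it -0.28, and leaving out Ch25h KO library 1 made it -0.29. Haem oxygenase Hmox1, which frees iron from haem, measured 232, 198 and 261 CPM against 183, 235 and 167 CPM, also with overlap.

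The 5 nucleoside and nucleobase carriers had 1 higher and 4 lower means of log2 values, a median log2 difference of -0.13, and no member with separated groups or an unadjusted limma p under 0.05. Slc43a3 (chr2:84936579-84958509), a carrier of purine nucleobases, measured 489, 503 and 504 CPM in WT and 486, 489 and 525 CPM in Ch25h KO. Its highest library was 1.08 times its lowest, the narrowest span of all members. The log2 difference was 0.004 with a 95% interval of -0.28 to 0.28.

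Slc29a1 (chr17:45585200-45599606), the equilibrative nucleoside carrier ENT1 that moves adenosine across the cell surface, measured 301, 326 and 287 CPM in WT and 276, 300 and 261 CPM in Ch25h KO. Its exons overlap those of Gm17080 on the other strand. The log2 difference of -0.13 had a 95% interval of -0.42 to 0.16. Per kilobase the other 3 were far lower, at 1.25 to 2.34. Slc29a3 (chr10:60712072-60752794), which sits in lysosomes, measured 10.4, 14.0 and 18.7 CPM against 10.0, 17.2 and 11.6 CPM. Slc29a2 (chr19:5023860-5031972) measured 6.98, 5.15 and 5.79 CPM against 4.56, 8.70 and 4.77 CPM, so that its mean was lower in Ch25h KO on the log2 scale but not in CPM, at 5.98 and 6.01. Slc29a4 (chr5:142692512-142722490), a carrier of organic cations as well as adenosine, measured 3.39, 2.74 and 6.09 CPM against 4.32, 3.04 and 1.89 CPM. In all 3 of these the groups overlapped. The concentrative carriers Slc28a1 and Slc28a2 were in the table but under the floor.

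Of 14 genes of nucleoside use and adenosine signalling, 11 were in the table and 9 were tested, with 7 higher and 2 lower means and none at an unadjusted limma p under 0.05. Adenosine kinase Adk measured 69.0, 70.0 and 58.6 CPM in WT and 75.5, 74.3 and 82.1 CPM in Ch25h KO, without overlap, at a log2 difference of 0.23 (limma p = 0.131, adjusted 0.965, exact permutation p = 0.1). Thymidine kinase Tk1 measured 95.3, 72.3 and 77.4 CPM against 110, 85.7 and 88.8 CPM, with overlap.

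The 34 members of the mitochondrial Slc25 family had 20 higher and 14 lower means and a median log2 difference of 0.03. None passed the test or had an unadjusted limma p under 0.05, the smallest being 0.0678. Their summed level was 2444 to 2863 CPM in WT and 2651 to 2761 CPM in Ch25h KO, and the group score, the mean log2 deviation of its members from the WT mean, lay between -0.02 and 0.03 in every library. The groups did not overlap for 2 higher members, the mitochondrial glutamate carrier Slc25a22 and the peroxisomal carrier Slc25a17, and for 2 lower ones, Slc25a35 and the NAD carrier Slc25a51. Together these were 11.8% of the family, close to the 10.2% of all genes.

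The ADP/ATP carrier Slc25a4 (chr8:46206797-46211284) measured 498, 371 and 401 CPM in WT and 502, 449 and 464 CPM in Ch25h KO. The other widely expressed ADP/ATP carrier, Slc25a5 (chrX:36795651-36798807), measured 374, 281 and 272 CPM against 355, 302 and 282 CPM. The phosphate carrier Slc25a3 (chr10:91116574-91124059) measured 600, 412 and 410 CPM against 514, 481 and 553 CPM. In all 3 WT library 1 was the highest of the WT libraries, and the groups overlapped.

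Slc25a35 (chr11:68968131-68974365) measured 6.09, 5.72 and 7.09 CPM in WT and 3.09, 4.64 and 4.66 CPM in Ch25h KO, without overlap. Its log2 difference was -0.52 ± 0.25 (SE, limma p = 0.0678, adjusted 0.941, exact permutation p = 0.1, lower in 3 of 3 libraries). Its exons overlap those of Rangrf on the other strand. Slc25a44 (chr3:88410498-88425139), which takes branched-chain amino acids into mitochondria, measured 53.4, 38.0 and 42.9 CPM against 35.3, 40.1 and 30.5 CPM, with overlap and a limma p of 0.102 (adjusted 0.951, exact permutation p = 0.2) at a log2 difference of -0.33. The latter was -0.20 without WT library 1. Slc25a22 measured 44.0, 55.0 and 55.7 CPM in WT and 68.4, 60.0 and 56.6 CPM in Ch25h KO, with its lowest Ch25h KO library less than 1 CPM above the highest WT library.

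Mitochondrial carriers and import genes under other names were tested for 14 of 15 listed, and all 14 had a higher mean of log2 values in Ch25h KO, at a median log2 difference of 0.10 beside -0.002 for all genes. In CPM the means of Mtch1 (871 in WT, 865 in Ch25h KO) and Timm23 (6.595 and 6.566) were lower in Ch25h KO. None of the 14 passed the test, and none had separated groups. The score of the list was 0.16, -0.05 and -0.11 in WT and 0.13, 0.11 and 0.20 in Ch25h KO, with overlap. Ucp2, an uncoupling protein of the same carrier family, measured 238, 157 and 194 CPM in WT and 228, 253 and 427 CPM in Ch25h KO. Ch25h KO library 3 stood above all others and the groups overlapped, at a log2 difference of 0.59 ± 0.24 (SE, limma p = 0.0369, adjusted 0.904, exact permutation p = 0.2) that was 0.31 without both libraries numbered 3. Mcu, the pore of the mitochondrial calcium uniporter, measured 88.5, 99.6 and 93.2 CPM against 91.2, 107 and 135 CPM, with overlap.

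Carriers of ions and pH numbered 19, with 9 higher and 10 lower means. At an unadjusted limma p under 0.05 were 3 (15.8%, beside 5.41% of all genes), all lower. The groups did not overlap for 1 higher member, Slc9a5, and for 3 lower ones, Slc9a9, Slc12a9 and Slc26a6. Together these were 21.1%, beside 10.2% of all genes. Slc9a9 (chr9:94669909-95230445), the endosomal sodium-proton exchanger NHE9, measured 143, 156 and 152 CPM in WT and 120, 119 and 93.3 CPM in Ch25h KO. The WT libraries lay close together and above every Ch25h KO library. The means were 150 ± 6.47 and 111 ± 14.9 CPM (SD, n = 3), a log2 difference of -0.45 ± 0.14 (SE, limma p = 0.0116, adjusted 0.836, exact permutation p = 0.1), and -0.32 without both libraries numbered 3.

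Slc12a9 (chr5:137314558-137333597), of the cation-chloride cotransporter family, measured 58.1, 46.5 and 78.3 CPM in WT and 35.5, 46.2 and 27.5 CPM in Ch25h KO. WT library 2 and Ch25h KO library 2 were almost equal, which left the groups just apart. The potassium-chloride cotransporter Slc12a7, or KCC4 (chr13:73733094-73816754), measured 76.7, 94.0 and 144 CPM against 52.3, 78.2 and 54.6 CPM, with overlap. Log2 differences were -0.73 ± 0.24 (SE) for both, with limma p-values of 0.0126 and 0.0138, each 0.836 when adjusted, and exact permutation p-values of 0.1 and 0.2. Without both libraries numbered 3 they were -0.35 and -0.40. Slc12a2, the sodium-potassium-chloride cotransporter NKCC1, measured 27.4, 38.3 and 27.9 CPM in WT and 29.8, 33.2 and 83.2 CPM in Ch25h KO, where library 3 alone stood high.

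**Figure D3:**
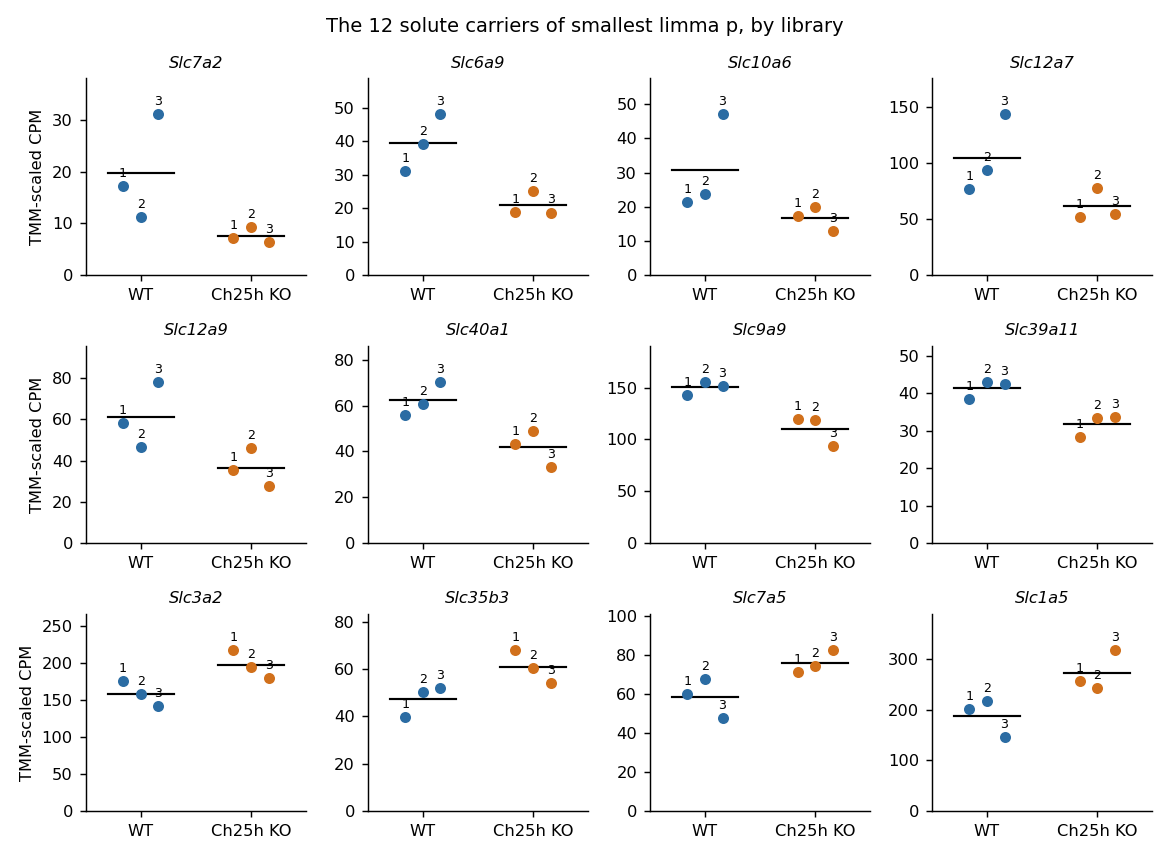
TMM-scaled CPM (y axis, from 0) of the 12 members of smallest limma p in each library, numbered 1 to 3, for WT in blue and Ch25h KO in orange, with the group mean as a black line. WT library 3 is the highest of the 6 libraries for Slc7a2, Slc6a9, Slc10a6, Slc12a7, Slc12a9 and Slc40a1, and the groups overlap only for Slc12a7.

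Organic acid, organic ion and fatty acid carriers numbered 19, with 10 higher and 9 lower means. The groups did not overlap for 1 higher and 1 lower member (10.5%, beside 10.2% of all genes). Slc10a6 (chr5:103605711-103629403), a sodium-coupled carrier of sulphated steroids, measured 21.3, 23.8 and 47.2 CPM in WT and 17.3, 19.9 and 12.9 CPM in Ch25h KO. WT library 3 stood far above the other 2 WT libraries, and the groups did not overlap. Its log2 difference was -0.78 ± 0.30 (SE, limma p = 0.0266, adjusted 0.836, exact permutation p = 0.1), and -0.27 without both libraries numbered 3. Slc22a4 (chr11:53983123-54028090), the ergothioneine carrier, had the highest log2 difference of all members at 0.81 ± 0.38 (SE, limma p = 0.0593, adjusted 0.939, exact permutation p = 0.2). It measured 2.78, 1.93 and 3.07 CPM against 5.02, 2.81 and 9.61 CPM, with overlap and a WT mean under the 3 CPM floor. The log2 difference was 0.43 without Ch25h KO library 3 and 0.52 without both libraries numbered 3.

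The 22 nucleotide sugar and related carriers of the Slc35 family had 15 higher and 7 lower means, a median log2 difference of 0.09 and none at an unadjusted limma p under 0.05. Slc35b3 (chr13:38932136-38960875), which brings the sulphate donor PAPS into the Golgi, measured 39.7, 50.1 and 51.9 CPM in WT and 68.3, 60.5 and 54.2 CPM in Ch25h KO, without overlap. The log2 difference was 0.36 ± 0.16 (SE) with a limma p of 0.0529 (adjusted 0.916) and an exact permutation p of 0.1. It was 0.52 without both libraries numbered 3, and exons of 5033403F01Rik overlap its own on the other strand. Slc35g2 measured 15.3, 16.4 and 14.5 CPM against 18.1, 18.8 and 18.1 CPM, without overlap. Slc35b3 and Slc35g2 were the only 2 of the 22 without overlap (9.09%, beside 10.2% of all genes).

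Vitamin and haem carriers numbered 9, with 5 higher and 4 lower means. The haem carrier Slc48a1, also named HRG1, measured 61.6, 60.0 and 71.9 CPM in WT and 56.7, 55.7 and 54.8 CPM in Ch25h KO, and the multivitamin carrier Slc5a6 measured 4.25, 4.74 and 3.65 CPM against 5.71, 5.36 and 5.52 CPM, both without overlap. Slc48a1 and Slc5a6 made up 22.2% of the 9, beside 10.2% of all genes without overlap. All 3 members of the Slc19 family of folate and thiamine carriers had a higher mean, with log2 differences from 0.11 to 0.36. Sugar carriers had 6 higher and 4 lower means of 10, choline and osmolyte carriers 2 and 4 of 6, and the 2 phosphate carriers were both higher by at most 0.22 on the log2 scale. In none of these 3 groups did a member have separated groups or an unadjusted limma p under 0.05.

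Of the members, 5 share the prefix but are no carriers: the scaffolds Slc9a3r1 and Slc9a3r2, and Slc7a6os, Slc4a1ap and Slc2a4rg-ps. Slc9a3r2 measured 505, 442 and 502 CPM in WT and 582, 443 and 839 CPM in Ch25h KO, where library 3 stood far above the rest and the groups overlapped. None of the 5 had an unadjusted limma p under 0.05.

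**Figure D4:**
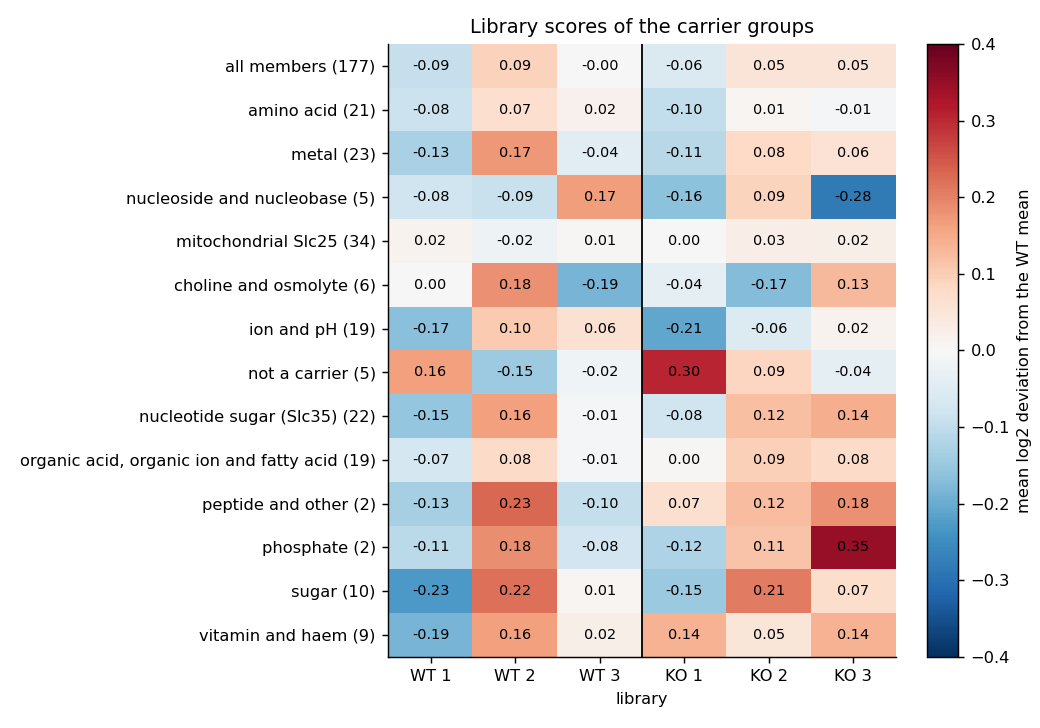
Score of each substrate group (rows, number of genes in brackets) in each library (columns), the mean over its members of log2(CPM + 1) minus the WT mean, with the value printed in each cell and coloured from blue (low) to red (high). Scores of all 177 members are lowest in WT library 1, at -0.09, and highest in WT library 2, at 0.09, so both ends lie within WT.

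The score of all 177 members was -0.09, 0.09 and 0.00 in WT and -0.06, 0.05 and 0.05 in Ch25h KO. For the metal carriers it was -0.13, 0.17 and -0.04 against -0.11, 0.08 and 0.06, and for the amino acid carriers -0.08, 0.07 and 0.02 against -0.10, 0.01 and -0.01. WT library 1 was the lowest of the 6 libraries for 46 members (26%), beside 19.2% of all genes tested, and Ch25h KO library 3 was the highest for 47 (26.6%), beside 17.2%.

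The median coefficient of variation of a member was 18.3% in WT and 16.6% in Ch25h KO. From its lowest to its highest library a member spanned 1.69 times at the median, and 55 members spanned less than 1.5 times and 15 more than 3 times. The widest was Slc14a1, a urea carrier, at 9.93 times, with 3.33, 4.70 and 0.605 CPM in WT and 6.01, 2.60 and 4.64 CPM in Ch25h KO. Slc22a4, Slc7a2 and the creatine carrier Slc6a8 followed at 4.97, 4.84 and 4.29 times.

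Of the 13 members that were lower without overlap, 8 had their highest value in WT library 3 and 8 their lowest in Ch25h KO library 3. Of the 10 that were higher without overlap, 6 were lowest in WT library 3 and 4 in WT library 1, while 5 were highest in Ch25h KO library 1 and 4 in Ch25h KO library 3. The same was not counted over all genes without overlap, so these counts cannot be called particular to the carriers. The sum of the blood endothelial markers, whose Plvap measured 1497, 1619 and 2519 CPM in WT and 1309, 1090 and 1183 CPM in Ch25h KO, was likewise highest in WT library 3. The score over the 6 tested markers of that list, however, was 0.03, 0.16 and -0.19 in WT, lowest in library 3. In Ch25h KO it was -0.47, -0.52 and -0.23. In bulk RNA, fewer cells of a type and less RNA per cell cannot be told apart.

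**Figure D5:**
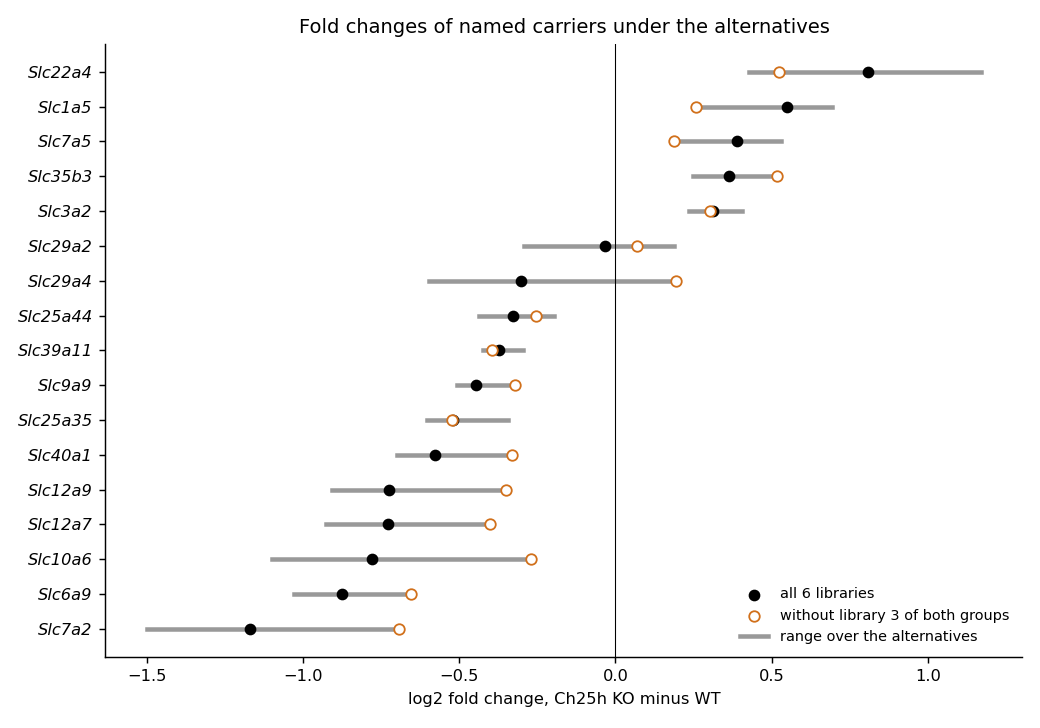
Log2 difference between Ch25h KO and WT (x axis) for 17 named carriers with all 6 libraries (black), without library 3 of both groups (open orange), and its range over all alternatives run (grey bar). For Slc7a2 the value moves from -1.17 to -0.69 without those libraries, for Slc39a11 it stays near -0.4, and the bars cross 0 only for Slc29a2 and Slc29a4.

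The members nearest to the 3 CPM floor had low values in both groups. Just inside were Slc38a3, at 2.496, 3.15 and 3.22 CPM in WT and 3.46, 4.06 and 1.87 CPM in Ch25h KO, and Slc24a3, at 1.71, 3.48 and 2.53 CPM against 3.11, 2.25 and 5.47 CPM. Just outside were Slc15a3, at 4.58, 1.41 and 4.58 CPM against 1.96, 1.996 and 3.05 CPM, and Slc25a47, at 3, 1.29 and 5.14 CPM against 2.87, 2.90 and 2.12 CPM. All 177 members passed the filter on low values of the test, and 4 of them had a mean under 3 CPM in 1 of the groups. Under the floor were 4 amino acid carriers, among them the cystine-glutamate exchanger Slc7a11, 3 metal carriers, 2 nucleoside carriers and 5 of the Slc25 family.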

How the data were processed

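The authors' deposited table holds a normalized signal on the CPM scale for 13454 gene symbols in 6 libraries. STAR 2.7.0, HTSeq 0.9.1, edgeR 3.26.8 and the mm10 build are named in the submitters' processing notes, without roles. The sources used here do not give the annotation or the strand setting of the counting. Per the labels' protocols, RNA of the sorted cells was copied with SMART-Seq v4, which does not mark strand, and made into libraries with Nextera XT. Groups come from the genotype labels; the titles call the Ch25h KO libraries HE, which is not explained there.

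Divided by the worth of 1 read in its library (0.0216 to 0.0268 CPM), 100% of the values came out whole (tolerance 0.01 of a read), and TMM factors recomputed from these reads equalled the implied ones, so the values are TMM-scaled CPM. Without molecular identifiers, limits hold for counting error only, and a count of 0 allows 3 reads, or 0.0648 to 0.0805 CPM.

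The main test was limma 3.58.1 (R 4.3.3) on log2(CPM + 1) with the groups as its sole factor. The variance prior followed a trend in expression, p-values were adjusted by Benjamini and Hochberg's method over 11980 genes, and a mean of 1 CPM was the minimum for entry. Low genes' changes come out too small on this scale. Errors of log2 differences are standard errors and intervals are 95%. As alternatives, edgeR 4.0.16 and DESeq2 1.42.0 were run on the recovered reads, and pseudocounts, filters, scaling, the variance prior, weights for libraries, a block for their numbers and the libraries included were varied. The fit was tested on simulated data.

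The members, their substrate groups, the gene lists and the tests were chosen with earlier results of these data known. Slc4a1ap and Slc2a4rg-ps were put among the genes that are no carriers after the symbols were seen. Named with values were, in each of the 4 main substrate groups, the 3 members of highest level per kilobase and the 2 of smallest limma p not yet named, the 6 other carriers of smallest p, the 4 of smallest p in each direction without overlap, the genes next to the floor, and 2 genes of smallest p of each pathway list. Other genes were chosen after their values were seen. Positions and exon lengths are from GENCODE M21 on mm10. Exons of 51 members overlap those of another gene, 43 of them on the other strand. Not every named member with such an overlap is marked above. Unmarked are, among others, Slc38a10, Slc48a1 and Slc5a6 on the other strand and Slc39a7 on the same strand. Promoter windows are from RefSeq on GRCm38.p6.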

Additional observations from a re-analysis of the deposited data

How the results depend on the processing

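No carrier was called under any of the 21 alternatives run, and the smallest adjusted p of a carrier over them was 0.111, with DESeq2 for Slc6a9. All genes called lower went from 1 to 0 with a pseudocount of 0.25 and with edgeR, and DESeq2 called 5 higher and 6 lower. Carriers higher at an unadjusted p under 0.05 went from 2 to 4 with quantile normalization, DESeq2 size factors and DESeq2, and to 1 without a trend. With library weights they were 12, and 16 were lower, where 16.2% of all genes passed. Without both libraries numbered 3 there were 1 and 1, and the groups did not overlap for 21 higher and 23 lower carriers, beside 11% and 12.8% of all genes, where fewer libraries have to separate. The median of the nucleoside and nucleobase carriers was then 0.0681. That of the Slc25 family was 0.0477 with quantile normalization, 0.0451 with DESeq2, 0.06 with library weights, and 0.00851 with carriers of at least 1 CPM. Slc29a2 turned from -0.03 to 0.0473 with quantile normalization, 0.0138 with edgeR, 0.0164 with DESeq2, 0.186 with library weights and 0.0681 without both libraries numbered 3, where Slc29a4 turned to 0.193. The cause was not tested.

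Leaving out each library in turn gave 0 to 8 higher and 4 to 10 lower carriers at an unadjusted p under 0.05, the fewest without WT library 3, beside 0.676 to 4.53% and 1.43 to 6.22% of all genes, and 13 to 29 higher and 15 to 31 lower carriers without overlap, beside 6.19 to 16.7% and 7.85 to 15.5%. All genes called lower ranged from 0 to 2. The medians ranged from -0.0678 to 0.0615 for amino acid, -0.0656 to 0.143 for metal, -0.292 to 0.0155 for nucleoside and nucleobase and 0.000516 to 0.0639 for Slc25 carriers, and Slc29a2 from -0.292 to 0.109. With a replicate block for the library number, 6 carriers were higher and 8 lower at an unadjusted p under 0.05, beside 2.38% and 4.72% of all genes. The deviations of libraries with the same number correlated at 0.238, -0.0617 and -0.101. Those of unlike number ran from -0.16 to 0.268, the highest being WT library 3 with Ch25h KO library 2. In log2 values, however, WT library 1 correlated best with Ch25h KO library 1 (0.9759). WT library 2 correlated best with Ch25h KO library 2 (0.9788), while the libraries numbered 3 had the lowest correlation of any pair (0.9548). Whether the numbers pair the libraries is therefore not settled. A read is worth under 0.03 CPM, but without molecular identifiers reads are not counts of molecules. How far counting and how far the spread between libraries limit the low carriers near 3 CPM was not tested.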
